A study of Homo sapiens with 9 samples.

Results

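The genes described here encode replacement histone variants and high-mobility-group (HMG) proteins in H1155 cells. They were taken by symbol from the deposited gene table: H2AFZ, H2AFV, H2AFX, H2AFY, H3F3A, H3F3B, HMGB1, HMGB2, HMGA1 and HMGN2. All 10 symbols were found among the 23369 genes of the table. Of the 10, 9 were above 0 in all 9 libraries and were tested, and H3F3A was listed at 0 in all 9. H1155 is an established human lung cancer line with neuroendocrine features. The cells received DMSO as vehicle, 1 µM cabozantinib or 1 µM foretinib for 4 h, starting 24 h after plating, and total RNA was sequenced from 3 libraries per group. Libraries are named by the numbers in their titles, which are 2, 4 and 5 in the DMSO group, 3, 4 and 5 in the cabozantinib group and 1, 2 and 4 in the foretinib group. The labels call them biological triplicates of 1 cell line; whether they were grown on separate days is not stated in the labels, so p-values measure the spread between these libraries.

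Most histone protein is made in S phase from the clustered HIST genes, whose messages end in a stem-loop. Replacement variants are encoded by genes outside those clusters, mostly with polyadenylated messages, and most can enter chromatin outside S phase. H2A.Z, encoded by H2AFZ and H2AFV, sits at promoters and enhancers. H2A.X, encoded by H2AFX, is phosphorylated next to DNA breaks. MacroH2A1, encoded by H2AFY, carries a large non-histone domain. The variant H3.3, encoded as 1 and the same protein by H3F3A and H3F3B, marks transcribed and regulatory chromatin. HMG proteins are abundant non-histone chromatin proteins. HMGB1 and HMGB2 bend DNA through HMG boxes, HMGA1 binds AT-rich DNA, and HMGN2 binds the nucleosome core.

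H3F3A is placed before the levels because its value bears on what can be said about H3.3. The value was 0 in DMSO replicates 2, 4 and 5, in cabozantinib replicates 3, 4 and 5 and in foretinib replicates 1, 2 and 4. In GENCODE release 29 (build GRCh38) the coding sequence of H3F3A, 411 bases, was identical over its whole length to a stretch of the processed pseudogene H3F3AP4. That pseudogene, also in the deposited table, was at 0 in all 9 libraries too; it was looked up after the H3F3A value was seen. The sister gene H3F3B has a coding sequence of the same length that differs from that of H3F3A at 88 bases, an identity of 78.6%. Coding bases 211 to 300 are shown for the 3 genes, 5′ to 3′ on the coding strand. They bear only on whether reads within this stretch could be told apart, not on reads from the untranslated ends. Capitals mark bases that differ from H3F3A.
H3F3A: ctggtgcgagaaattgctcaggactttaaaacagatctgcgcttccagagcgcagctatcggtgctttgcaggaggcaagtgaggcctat
H3F3AP4: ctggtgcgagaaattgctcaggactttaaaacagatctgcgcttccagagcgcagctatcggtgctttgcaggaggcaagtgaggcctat
H3F3B: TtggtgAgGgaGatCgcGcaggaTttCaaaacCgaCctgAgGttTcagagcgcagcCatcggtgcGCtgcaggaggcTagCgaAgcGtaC
The H3F3A stretch lies in exons between chr1:226065738-226071368 on the plus strand, that of H3F3AP4 at chr2:174720118-174720207 on the plus strand, and that of H3F3B in exons between chr17:75778706-75778881 on the minus strand, all on GRCh38. H3F3B differed from H3F3A at 21 of these 90 bases and H3F3AP4 at 0.

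Shared sequence was not limited to H3F3A. Of all 50-base words in the coding sequence of H3F3A, 100% also occurred in another annotated gene. The share was 83.3% for HMGB1 and 79.9% for HMGN2, which have many processed pseudogenes. It was 30.8% for H2AFV, 26.9% for HMGA1, 26.5% for H3F3B, 17.8% for H2AFZ and 12.1% for H2AFY, and only 1.72% for HMGB2 and 1.31% for H2AFX. Over whole transcripts, untranslated ends included, the share was 11.7% for H3F3A, 11.5% for HMGB1, 33.0% for HMGN2 and 24.5% for H2AFY. It was 7.85% or less for each of the other members. H2AFY shared 12.3% of its words with C5orf66, annotated on its opposite strand. How the authors treated reads that match several genes, and whether counting used the strand, is not given by the labels or the table. The reason for the zeros of H3F3A was not tested, and the values of HMGB1, HMGN2 and H2AFY are uncertain to the extent that such reads were split or dropped. The total H3.3 message level cannot be given, because the table holds a level for only 1 of its 2 genes.

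**Figure D1:**
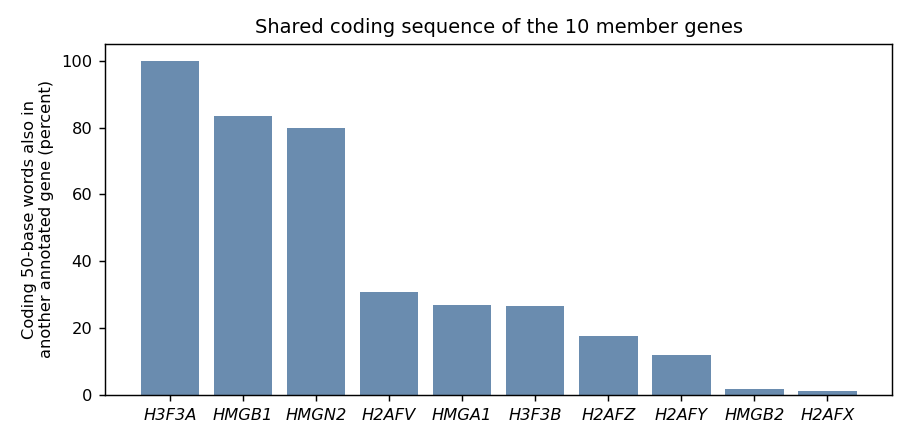
Percent of the 50-base words in each gene's coding sequence (y axis) that also occur in another gene of GENCODE release 29, for the 10 genes (x axis, 1 bar per gene). H3F3A stands at 100%, HMGB1 at 83.3% and HMGN2 at 79.9%, while HMGB2 and H2AFX lie below 2%.

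The H2A.Z genes can be told apart by sequence, which matters for the H2AFZ and H2AFV levels given below. Their coding sequences, 387 bases each, differ at 76 bases, an identity of 80.4%. Coding bases 211 to 300 are shown 5′ to 3′, with capitals at bases of H2AFV that differ from H2AFZ.
H2AFZ: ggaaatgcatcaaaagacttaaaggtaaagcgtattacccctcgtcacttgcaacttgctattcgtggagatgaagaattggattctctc
H2AFV: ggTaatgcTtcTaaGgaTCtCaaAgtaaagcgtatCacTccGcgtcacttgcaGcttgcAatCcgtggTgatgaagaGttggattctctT
The stretches lie within 1 exon each on GRCh38, at chr4:99948836-99948925 for H2AFZ and at chr7:44835554-44835643 for H2AFV, both on the minus strand. They differ at 17 of 90 bases.

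Values are normalised read counts, that is, a gene's reads divided by 1 size factor per library, and ± stands for the SD of the 3 libraries of a group around their mean (n = 3). Total gene-assigned reads ran from 26996023 to 34062153 per library, with the groups overlapping. The foretinib libraries had more of the 12642 tested genes at 0, 18.5% ± 2.38, against 7.25% ± 3.14 in DMSO and 5.01% ± 0.544 in cabozantinib. Neuroendocrine markers were present in every library, 9 of 10 being detected, with summed levels of 58887 to 62733 in DMSO, 67381 to 72874 in cabozantinib and 69735 to 73359 in foretinib. Sums of the other marker lists were far lower, from 2603 to 6674 over all libraries for epithelial markers, 453 to 1380 for fibroblast markers, of which COL1A2 made up most in 7 of 9 libraries, and 4.89 to 755 for leukocyte markers. Endothelial markers reached at most 87.4 and red cell markers at most 141, and PTPRC, CD3E, VWF, CDH5, KDR and HBB were at 0 in all 9. The part of the marker differences in the results was not tested.

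HMGN2 dominated the set. This nucleosome-binding protein had the 9th highest mean of all tested genes, with 151651, 124013 and 131067 in DMSO replicates 2, 4 and 5, 149167, 123468 and 153023 in cabozantinib replicates 3, 4 and 5, and 107872, 178773 and 141859 in foretinib replicates 1, 2 and 4. Both the lowest and the highest of the 9 values came from foretinib libraries, and the 3 groups overlapped. HMGN2 accounted for 0.385% to 0.617% of a library's reads and 49.0% to 58.04% of the summed level of the 10 genes. HMGB1 followed at rank 48, and H2AFX was at rank 123. HMGB2 (rank 219), H2AFZ (254) and H3F3B (261) were close together, then came H2AFV (532), H2AFY (574) and HMGA1 (1258). Thus all 9 detected genes lay above at least 90.05% of the tested genes.

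Read counts grow with message length, so levels of different genes were compared per kilobase of exon in GENCODE release 29, which may differ from the annotation the authors counted on. On this scale the mean over the 9 libraries was 117238 per kilobase for HMGN2, 13129 for H2AFZ, 12346 for H2AFX, 7449 for HMGB2, 5147 for HMGB1, 4317 for H3F3B, 2464 for H2AFY, 1864 for HMGA1 and 1653 for H2AFV. The order therefore changed on this scale: HMGB1, second by read count, fell behind HMGB2 per kilobase, and H2AFZ rose to second place. The length was the union of exons over all protein-coding transcripts of a gene. It was 7353 bases for HMGB1 and 1918 for HMGB2, whose coding sequences have 648 and 630 bases. Which of these exons the messages in these cells hold was not tested, so the order depends on this choice of length. In DMSO, H2AFZ at 11525 and H2AFX at 12453 per kilobase did not differ beyond their spread, with coefficients of variation of 12.0% and 36.3%. In cabozantinib H2AFZ was the higher of the pair, at 13858 against 10033 per kilobase, with coefficients of variation of 16.0% and 6.74%. In foretinib H2AFZ at 14005 and H2AFX at 14553 per kilobase did not differ beyond their spread, with coefficients of variation of 25.9% and 32.8%. HMGA1 and H2AFV, at 1734 and 1732 per kilobase in DMSO, 1760 and 1606 in cabozantinib and 2099 and 1620 in foretinib, did not differ beyond their spread in any group.

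**Figure D2:**
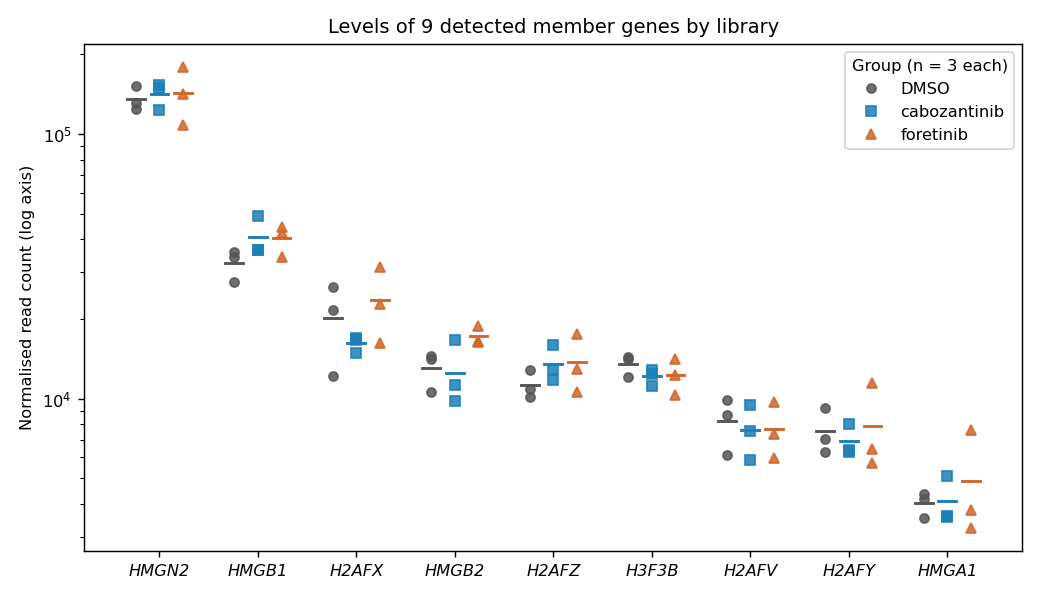
Normalised read counts (log axis) of the 9 detected genes in each of the 9 libraries, as circles for DMSO, squares for cabozantinib and triangles for foretinib, with a bar at each group mean, n = 3. HMGN2 lies highest, at 107872 or more in every library, and HMGA1 lies lowest in group mean, at 7604 or less, and the groups overlap for most genes.

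None of the 9 tested genes passed an adjusted p of 0.05 in any of the 3 comparisons. Limma, fitted on log2(value + 1) over all 12642 tested genes, called 0% of these genes in each comparison, so 0 of 9 equals the background. At an unadjusted p under 0.05, 0 of 9 members stood out in foretinib against DMSO, against 9.07% of all tested genes (2.17% higher and 6.9% lower), and 0 of 9 in cabozantinib against DMSO, against 1.31% (0.878% higher and 0.435% lower). In foretinib against cabozantinib it was 1 of 9, HMGB2, which was higher, against 9.9% of all tested genes (1.83% higher and 8.08% lower). Groups did not overlap for 1 of 9 members in foretinib against DMSO (11.7% of all tested genes), 1 of 9 in cabozantinib against DMSO (9.9%) and 0 of 9 in foretinib against cabozantinib (14.2%). edgeR on the recovered reads called 0 genes in each comparison, and DESeq2 called 656, 49 and 621 genes, with 0 of the 9 members among them. Since this is RNA from bulk cultures, fewer cells expressing a gene and less RNA per cell cannot be told apart.

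The summed level of the 10 genes was 245931 ± 26850 in DMSO, 255579 ± 24534 in cabozantinib and 270345 ± 50504 in foretinib. Foretinib gave 1.099 times and cabozantinib 1.039 times the DMSO sum, and foretinib 1.058 times the cabozantinib sum. Each difference was smaller than the SD of at least 1 of its groups. The members' median log2 fold change was 0.18, -0.08 and 0.01 in that order. The median over all tested genes was -0.34, 0.04 and -0.44, and over the 2014 genes with a mean of at least 3000, the range of the 9 detected members, it was 0.01 in all 3 comparisons. Quantile normalisation moved the all-gene medians to -0.04, 0.01 and -0.05 and the members' medians to 0.07, -0.08 and -0.0007. The median of the 2014 genes became -0.08, 0.01 and -0.09 under it.

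**Figure D3:**
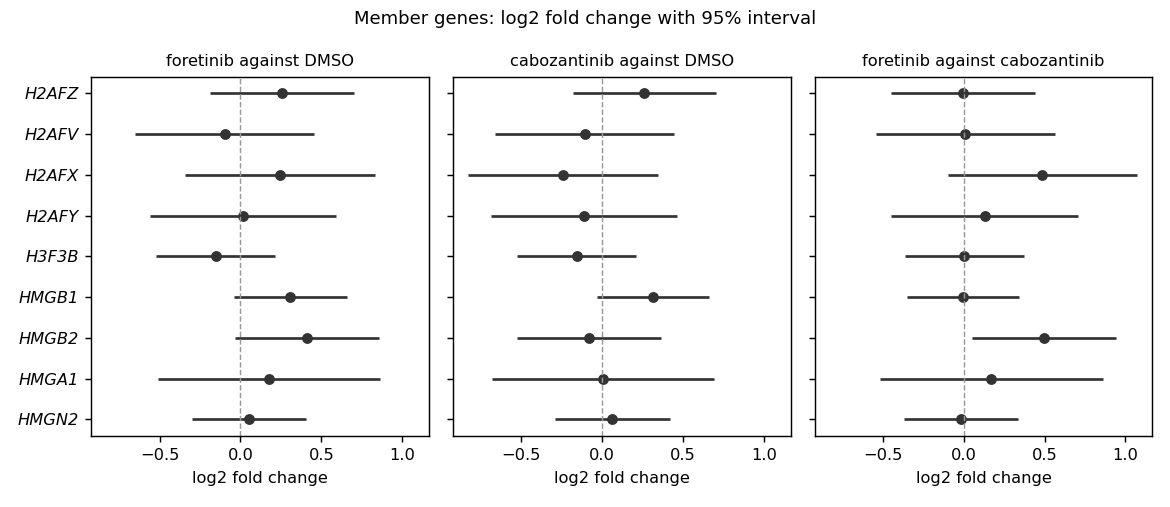
Log2 fold changes (x axis) of the 9 tested genes (y axis) in the 3 comparisons, 1 panel each, as points with the 95% interval of the limma fit as lines; the dashed line marks no change. The interval of HMGB2 in foretinib against cabozantinib, 0.05 to 0.94, is the only one of the 27 that leaves out 0, and its adjusted p is 0.476.

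HMGB2, a DNA-bending protein whose message is abundant in dividing cells, had the largest fold change of the members against DMSO. It was at 14469, 10607 and 14125 in DMSO replicates 2, 4 and 5, at 9760, 11253 and 16591 in cabozantinib replicates 3, 4 and 5, and at 18816, 16522 and 16434 in foretinib replicates 1, 2 and 4. All 3 foretinib values lay above all 3 DMSO values, while cabozantinib replicate 5 reached into the foretinib range. Of all tested genes, 3.99% were higher in foretinib than in DMSO without overlap, and 1 of 9 members was. The mean was 13067 ± 2137 in DMSO and 17258 ± 1350.5 in foretinib, a ratio of 1.32, with a log2 fold change of 0.41 (95% interval -0.03 to 0.86) and a limma adjusted p of 0.531. Against cabozantinib, at 12535 ± 3591, the ratio was 1.38 and the log2 fold change 0.50, with a limma adjusted p of 0.476. Cabozantinib against DMSO gave a log2 fold change of -0.08 (95% interval -0.53 to 0.36).

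HMGB1, the close relative of HMGB2, had a different order of groups. Its values were 35914, 27636 and 34144 in DMSO, 36458, 36571 and 48876 in cabozantinib and 34248, 42359 and 44431 in foretinib, in the order of the replicate numbers. All 3 cabozantinib values exceeded all 3 DMSO values, by a narrow margin for cabozantinib replicate 3 over DMSO replicate 2, and foretinib overlapped with both groups. Of all tested genes, 5.18% were higher in cabozantinib than in DMSO without overlap, and HMGB1 was the 1 of 9 members. The ratio of means was 1.25 for cabozantinib against DMSO (log2 fold change 0.31, 95% interval -0.03 to 0.66, limma adjusted p = 1.00) and 1.24 for foretinib against DMSO (0.31, 95% interval -0.04 to 0.66, limma adjusted p = 0.531). Between foretinib and cabozantinib the log2 fold change of HMGB1 was -0.005 (95% interval -0.35 to 0.34).

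The ratio of HMGB2 to HMGB1 within a library does not depend on the size factor. It was 0.403, 0.384 and 0.414 in DMSO, 0.268, 0.308 and 0.339 in cabozantinib and 0.549, 0.390 and 0.370 in foretinib. The 3 cabozantinib ratios lay below the other 6. The mean ratio was 0.400 ± 0.0151 in DMSO, 0.305 ± 0.0359 in cabozantinib and 0.436 ± 0.0983 in foretinib. The exact two-sided permutation test on the log2 ratio gave p = 0.1 for cabozantinib against DMSO (log2 difference -0.40) and p = 0.1 for foretinib against cabozantinib (0.50), the smallest value that 3 libraries against 3 allow, and p = 0.9 for foretinib against DMSO (0.10). Adjusted over the 6 ratio tests, the exact permutation values were 0.3, 0.3 and 1, so the difference did not pass.

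**Figure D4:**
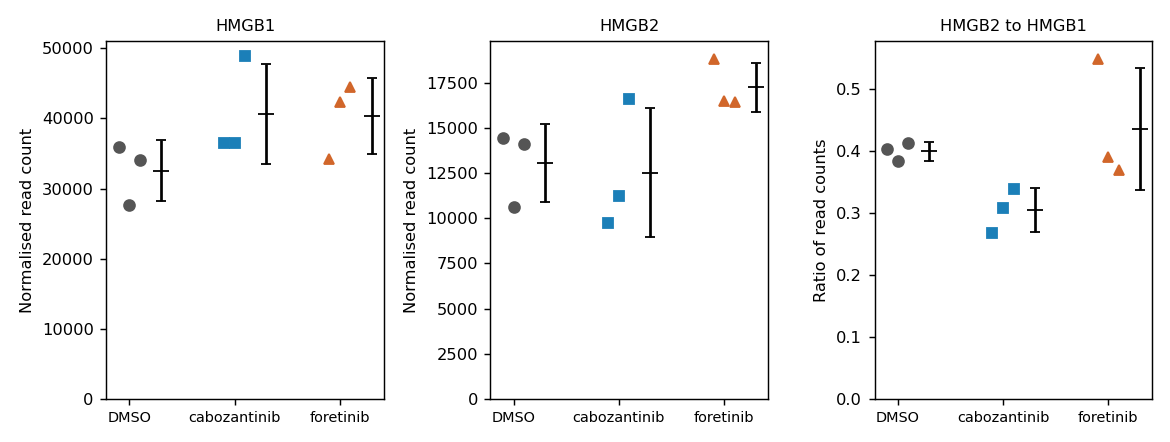
HMGB1 and HMGB2 (normalised read counts) and the ratio of HMGB2 to HMGB1 for each library, as points, and beside them a bar for each group's mean ± SD (n = 3). HMGB2 is highest in foretinib, at 16434 to 18816, and the ratio is lowest in cabozantinib, at 0.268 to 0.339.

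The H2A.Z genes overlapped between all groups. H2AFZ was at 10146, 10915 and 12788 in DMSO, 12970, 11750 and 15979 in cabozantinib and 10603, 12955 and 17576 in foretinib. The means of both inhibitor groups were higher than that of DMSO, at ratios of 1.20 for cabozantinib and 1.22 for foretinib, and the lowest inhibitor libraries lay within the DMSO range. The log2 fold changes were 0.26 in each comparison with DMSO, with 95% intervals of -0.18 to 0.70 and -0.19 to 0.70, and these comparisons share the DMSO libraries. H2AFV, the less abundant copy, was at 9900, 6113 and 8665 in DMSO, 9446, 7557 and 5882 in cabozantinib and 5982, 9750 and 7353 in foretinib, with log2 fold changes of -0.11 and -0.10 against DMSO. The ratio of H2AFV to H2AFZ was 0.738 ± 0.214 in DMSO, 0.580 ± 0.188 in cabozantinib and 0.578 ± 0.168 in foretinib. Exact two-sided permutation tests gave p = 0.5 for each inhibitor against DMSO and p = 1 between the inhibitors.

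H2AFX, the variant phosphorylated at DNA breaks, varied most between replicates for its level. It was at 26489, 21669 and 12139 in DMSO, 14941, 16946 and 16693 in cabozantinib and 22717, 31540 and 16210 in foretinib. The DMSO and foretinib libraries spread widely and the cabozantinib libraries lay close together inside the DMSO range. The mean of the 3 groups' coefficients of variation was 25.3%, higher than in 97.5% of the 200 genes nearest in level, whose median was 12.7%. Its log2 fold change was 0.49 (95% interval -0.10 to 1.07) between the inhibitors. Against DMSO it was 0.25 (95% interval -0.34 to 0.83) with foretinib and -0.24 (95% interval -0.83 to 0.35) with cabozantinib. Without DMSO replicate 5, the value for foretinib against DMSO was -0.08, and without foretinib replicate 2 it was 0.0068.

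H2AFY, which encodes macroH2A1, was at 9245, 6284 and 7050 in DMSO, 6300, 8045 and 6383 in cabozantinib and 6447, 11485 and 5713 in foretinib. Foretinib replicate 2 was the highest and foretinib replicate 4 the lowest of the 9. Log2 fold changes were 0.02, -0.11 and 0.13 in the order foretinib to DMSO, cabozantinib to DMSO and foretinib to cabozantinib. The first was -0.29 without foretinib replicate 2, and -0.09 under quantile normalisation.

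H3F3B, the H3.3 gene with a level in the table, was the steadiest member. Its values were 14398, 12108 and 14154 in DMSO, 12834, 11202 and 12358 in cabozantinib and 10364, 14119 and 12253 in foretinib. Its mean coefficient of variation was 10.5%, against a median of 13.8% in the 200 genes nearest in level, 19.0% of which varied less. Log2 fold changes were -0.15 (95% interval -0.52 to 0.21) for foretinib and -0.16 (95% interval -0.53 to 0.21) for cabozantinib, each against DMSO, and 0.004 (95% interval -0.36 to 0.37) between the inhibitors. On the fold scale the last interval runs from 0.777 to 1.29.

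HMGA1, an architectural factor of AT-rich DNA, was at 3550, 4359 and 4196 in DMSO, 5114, 3578 and 3593 in cabozantinib and 3253, 3795 and 7604 in foretinib. A single library, foretinib replicate 4, stood far above the rest. With it the log2 fold change of foretinib against DMSO was 0.18 (95% interval -0.51 to 0.87), and without it -0.19. HMGN2, whose values are given above, had log2 fold changes of 0.05 (95% interval -0.30 to 0.40) and 0.06 (95% interval -0.29 to 0.42) against DMSO and -0.01 (95% interval -0.37 to 0.34) between the inhibitors.

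Foretinib and cabozantinib, which differ by a ring fluorine and by a morpholinopropoxy group that foretinib carries on its quinoline where cabozantinib has a methoxy, were thus not separated by any of the 9 genes at the same dose and time. This 1 pair of compounds was compared for each gene, with p-values adjusted over all tested genes. The width of the intervals sets what could have been missed. For H3F3B, HMGB1 and HMGN2 the 95% interval of foretinib against cabozantinib stayed within 0.776-fold and 1.29-fold, while for H2AFX it reached 2.10-fold, for HMGB2 1.92-fold and for HMGA1 1.81-fold.

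The members' values were also compared with each other library by library. Foretinib replicate 2 held the highest value of 3 members, H2AFX, H2AFY and HMGN2, and foretinib replicate 1 the lowest of 3, including HMGN2 and H3F3B. How often other tested genes had their extremes in these libraries was not counted. Group means were subtracted from the log2 values, and all pairs of tested members were correlated over the 9 libraries. H3F3B and HMGN2 had the highest Pearson correlation, 0.94, and H2AFV and H3F3B the next, 0.79. The lowest was -0.58, for H2AFX and HMGA1. These extremes of all pairs describe 9 libraries that share their size factors. They do not show that the members moved as a set, or that any of them moved in opposite directions. Among 7805 genes with a mean of at least 500, those whose log2 values followed HMGN2 most closely over the 9 libraries were RCOR2 (r = 0.96), NTAN1 (0.95) and PABPN1 (0.94), the highest of the 7805 correlations.

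Replication-dependent histones, the S-phase counterparts of these variants, were summed over the 73 genes with symbols starting HIST. Of these, 26 were at 0 in all libraries. The HIST genes accounted for 2.51% to 4.16% of a library's reads, against 0.787% to 1.11% for the 10 members, HMGN2 and the other HMG genes included. Their sums were 807470 ± 109660 in DMSO, 761870 ± 95027 in cabozantinib and 1006347 ± 154385 in foretinib, and the groups overlapped. The 6 histone variant members alone, H3F3A at 0 included, summed to 60688 ± 8299, 56429 ± 898 and 65022 ± 12927 in the same order.

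Over 5 lists of related genes, which hold chaperones, exchange factors, other histone variants and other HMG proteins, ANP32E had the smallest p of the 48 genes tested. It encodes a chaperone that removes H2A.Z from nucleosomes. ANP32E was at 8895, 8527 and 8173 in DMSO, 12497, 11763 and 15019 in cabozantinib and 13841, 15277 and 14243 in foretinib. All 6 inhibitor libraries lay above all 3 DMSO libraries, at a group mean of 8532 ± 361 in DMSO, 13093 ± 1708 in cabozantinib and 14453 ± 741 in foretinib. The ratio was 1.69 for foretinib (log2 fold change 0.76, SE 0.16, 95% interval 0.41 to 1.11) and 1.53 for cabozantinib (0.61, SE 0.16, 95% interval 0.26 to 0.96), both against the same DMSO libraries. ANP32E ranked 4th of the 12642 tested genes by p in foretinib against DMSO and 24th in cabozantinib against DMSO, and its limma adjusted p was 0.358 and 1.00, so it did not pass. DESeq2 on the recovered reads called it in both comparisons, at adjusted p-values of 2.94e-05 and 0.0113, and edgeR in neither. Between the inhibitors the log2 fold change was 0.15 (95% interval -0.20 to 0.50).

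**Figure D5:**
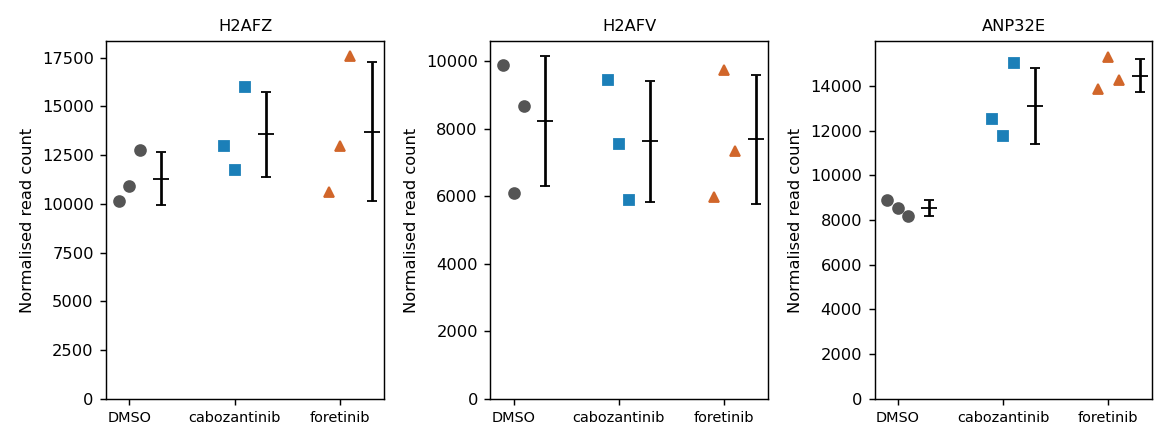
Normalised read counts of H2AFZ and H2AFV, which encode H2A.Z, and of the H2A.Z chaperone ANP32E for each library, as points, and beside them a bar for each group's mean ± SD (n = 3). ANP32E lies at 8173 to 8895 in DMSO and at 11763 to 15277 in the 6 inhibitor libraries, while H2AFZ and H2AFV overlap between the groups.

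Of 13 tested H2A.Z exchange genes, ANP32E included, 0 passed in any comparison by limma, and DESeq2 called ANP32E alone. In the other lists 0 genes passed by limma, edgeR or DESeq2. SRCAP, the ATPase that deposits H2A.Z, was at 7236, 8976 and 7918 in DMSO, 6372, 5375 and 6962 in cabozantinib and 9594, 11853 and 7480 in foretinib. Cabozantinib lay below both other groups without overlap, and the log2 fold change of foretinib against cabozantinib was 0.61 (95% interval 0.15 to 1.08, limma adjusted p = 0.394). KAT5, an acetyltransferase, was at 2070, 1200 and 1039 in DMSO, 992, 881 and 766 in cabozantinib and 1227, 557 and 9.41 in foretinib, where replicate 4 stood far below. The median log2 fold change of the 13 genes was 0.24 and -0.12 for foretinib and cabozantinib against DMSO and 0.26 between the inhibitors, the order kept for the lists that follow.

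Among 8 H3.3 chaperones, the HIRA complex, the ASF1 proteins and DAXX with ATRX, 0 passed, and medians were 0.07, -0.16 and 0.33. ASF1A, which hands H3 and H4 to other chaperones, was at 720, 701 and 900 in DMSO and 386, 277 and 352 in cabozantinib, without overlap, but at 137, 1605 and 480 in foretinib. ATRX, a remodeller that works with DAXX, had log2 fold changes of 0.14, -0.19 and 0.33, and UBN1, a HIRA complex subunit, of 0.47, -0.79 and 1.25, with an adjusted p of 0.519 by limma for the last.

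Among 13 general histone chaperones 0 passed, and medians were 0.13, 0.03 and 0.07. NAP1L4, a nucleosome assembly protein, had means of 2925 ± 864 with DMSO, 2913 ± 240 with cabozantinib and 1605 ± 844 with foretinib (log2 fold change -0.98 for foretinib against cabozantinib, limma adjusted p = 0.471). HJURP, which loads the centromeric histone CENPA, was at 1982 ± 710, 3423 ± 694 and 2647 ± 1145, and NASP, a carrier of free histones, at 20026 ± 4602, 19064 ± 354 and 24221 ± 4026.

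In the list of other histone variants 4 of 9 genes were tested, 4 being at 0 in all libraries, and 0 passed. Of the 23369 genes in the deposited data, 12642 were tested and 8208 were at 0 in all libraries. H2AFY2, which encodes macroH2A2, was at 1028, 1620 and 1186 in DMSO, 1996, 1408 and 1395 in cabozantinib and 2074, 2609 and 2016 in foretinib. Foretinib lay above both other groups without overlap, at 1.75 times the DMSO mean (log2 fold change 0.82, 95% interval -0.03 to 1.67, limma adjusted p = 0.531). CENPA ran from 2.47 to 2637 within foretinib alone, and H1F0, a linker histone, from 0 to 1264, a spread too wide to read a fold change from. The list's median log2 fold changes of -0.83, 0.04 and -1.31 include these genes. For foretinib its summed level ran the other way, at 1.34 times the DMSO sum and 1.10 times the cabozantinib sum.

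In the list of other HMG proteins 10 of 11 were tested and 0 passed, with medians of 0.21, 0.26 and -0.09. HMGA2 was at 0 in all 9 libraries. TFAM, the HMG-box factor of mitochondrial DNA, was at 2944, 1541 and 2238 in DMSO, 2709, 2469 and 3689 in cabozantinib and 3319, 3869 and 5923 in foretinib. It was higher in foretinib than in DMSO without overlap, at 1.95 times the mean (log2 fold change 0.97, 95% interval 0.23 to 1.71, limma adjusted p = 0.442). HMGN1, a relative of HMGN2, was at 10694, 10571 and 11626 in DMSO and 9390, 11020 and 12542 in cabozantinib. In foretinib HMGN1 was at 10544, 9040 and 6906, below DMSO without overlap (log2 fold change -0.33, 95% interval -0.76 to 0.09). Over the 5 lists, 3 of 48 genes were higher and 2 lower in foretinib than in DMSO without overlap, against 3.99% and 7.69% of all tested genes. The counts were 3 higher and 3 lower for cabozantinib against DMSO, against 5.18% and 4.71%, and 5 higher and 3 lower for foretinib against cabozantinib, against 4.49% and 9.7%.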

How the data were processed

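RNA of 9 libraries was compared. The authors deposited 1 signal value per gene and library, a gene's read count divided by a size factor; listed in the submitters' processing notes, without roles, are DESeq2, HTSeq, Cufflinks 2.2.1, TopHat2 2.0.13 and the build hs37d5. Annotation, strand setting, filters and what "combined" means in the column names: not given in the sources used here. In each column 100% of values were whole multiples of 1 step (tolerance 1e-06 of a read), which gave whole reads and totals. For DMSO replicate 4 and cabozantinib replicates 3 and 4 this step was so near 1 that the recovery is less certain, and with it their totals and the edgeR and DESeq2 counts.

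Genes with a value of at least 10 in at least 3 libraries were tested on log2(value + 1) with limma 3.58.1 (trend, R 4.3.3), all libraries in 1 model, Benjamini-Hochberg adjusted over all tested genes, called below 0.05. A fold change is on this scale. The fit was also run on simulated data, with known changes placed only in genes with a mean of at least 3000. The share of those changes that it called is not given here. Alternatives used edgeR 4.0.16 and DESeq2 1.42.0 on recovered reads. Named genes are the 10 members and up to 3 genes of each related list with the smallest p. A gene named by this rule is not reported here. Members and lists were chosen with earlier results of these data known. The paralog ratio of the H3.3 genes could not be formed, which left 6 ratio tests. Lengths and sequences come from GENCODE release 29 (GRCh38), which is not the authors' build. Depth limits precision, and reads amplified from 1 molecule cannot be told apart.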

Additional observations from a re-analysis of the deposited data

How the results depend on the processing

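Members passed in 0 of the comparisons under every alternative run, edgeR and DESeq2 included. Over all genes the count of 0 in foretinib against DMSO became 1 with quantile normalisation and 656 with DESeq2, and DESeq2 gave 49 in cabozantinib against DMSO and 621 in foretinib against cabozantinib; the cause was not tested. Ratios of summed member levels ran without each library in turn from 0.996 to 1.20, from 0.991 to 1.11 and from 0.958 to 1.16 in these 3 comparisons. Deviations from the group means correlated at -0.0022 to 0.029 between same-numbered libraries and at -0.024 to 0.031 between differently numbered ones. With so few same-numbered pairs, this cannot settle whether the numbers in the titles pair the libraries. The replicate block left 0 calls among members and all genes, and turned H2AFV to 0.017 in foretinib against DMSO. Foretinib replicate 1 and cabozantinib replicate 3 share their number with no other library, so they carry no weight in the fold changes under this block. With this block, cabozantinib against DMSO turned to 0.11 for H2AFX, 0.18 for H2AFY, 0.095 for HMGB2 and -0.35 for HMGA1, and foretinib against cabozantinib to 0.40 for H2AFZ, -0.11 for H2AFX, -0.18 for H2AFY, 0.094 for HMGB1 and 0.14 for HMGN2. Other turned log2 fold changes in foretinib against DMSO were H2AFY (-0.094 quantile, -0.015 TMM) and HMGN2 (-0.16 quantile). In foretinib against cabozantinib they were H2AFV (-0.073 quantile, -0.030 TMM, -0.023 edgeR), H3F3B (-0.085 quantile, -0.035 TMM, -0.024 edgeR), H2AFZ (0.012 DESeq2) and HMGN2 (0.0075 DESeq2).

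Without each library in turn, the ranges that crossed 0 were, in foretinib against DMSO, -0.30 to 0.070 for H2AFV, -0.081 to 0.49 for H2AFX, -0.29 to 0.21 for H2AFY, -0.19 to 0.42 for HMGA1 and -0.13 to 0.24 for HMGN2. In cabozantinib against DMSO they were -0.31 to 0.067 for H2AFV, -0.23 to 0.045 for H2AFY, -0.30 to 0.078 for HMGB2 and -0.16 to 0.093 for HMGA1. In foretinib against cabozantinib they were -0.20 to 0.17 for H2AFZ, -0.18 to 0.18 for H2AFV, -0.18 to 0.33 for H2AFY, -0.10 to 0.12 for H3F3B, -0.079 to 0.13 for HMGB1, -0.20 to 0.41 for HMGA1 and -0.19 to 0.17 for HMGN2. The log2 ratio of H2AFV to H2AFZ ran from -0.28 to 0.23 between the inhibitors, and that of HMGB2 to HMGB1 from -0.074 to 0.21 in foretinib against DMSO. ANP32E kept its direction, at 0.66 to 0.81 against DMSO for foretinib and 0.51 to 0.68 for cabozantinib over all alternatives, with adjusted p-values of 2.94e-05 to 0.717 and 0.0113 to 1.00. The other alternatives, on pseudocount and filter and with only the 6 libraries compared, changed no member's direction.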
